A study of Mus musculus with 16 samples.

Results

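The genes described here are 10 genes of monocytes and macrophages: C1qa, C1qb, C1qc, Apoe, Cx3cr1, Axl, Slc40a1, Clec4a1, Clec4a2 and Ctsb. They were chosen by their measured levels across the 6 groups of all 16 libraries, so their levels and differences are a description and no test of them is offered as evidence. The CD93 experiment lists 26595 features and the drug experiment 36930, with 40050 distinct names between them, and all 10 genes are in both.

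Complement C1q is the recognition molecule of the classical complement pathway and is built from A, B and C chains that assemble together. Unlike most complement proteins, which come from the liver, it is made chiefly by macrophages and related myeloid cells, and it binds dying cells, immune complexes and some microbes. Bone marrow macrophages also take up aged red cells and cell debris, recycle iron and export lipid with apolipoprotein E.

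RNA from sorted mouse bone marrow cells was amplified with SMART-Seq v4 and sequenced. LSK cells, the lineage-negative fraction with Sca-1 and c-Kit that holds blood stem and progenitor cells, came from naive wild-type (WT, 2 libraries) or CD93-/- (KO, 2 libraries) mice. Leukemia stem cells (LSC) came from mice with a chronic myeloid leukemia (CML) model, in which WT or CD93-/- LSK cells carrying BCR-ABL1-GFP were given by vein to syngeneic BL/6 recipients without irradiation (3 libraries each), so the recipients' own marrow cells remained. In a separate drug experiment, LSC came from BL/6 CML mice given a compound labelled MCP (10 mg/kg) or Veh, called vehicle here, with 3 libraries each. The labels give post natal week 8 for all groups and the strain C57BL/6 for the WT and drug samples. The KO samples carry no strain label. The titles of the drug samples read LSC and their source field reads LSK, and groups here follow the titles. Nothing in the labels ties each replicate to its own mouse, so p-values measure only the spread between these libraries, which may be technical.

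The levels are RPKM, reads normalised to gene length and library size, and a lowest value of 0.003 (CD93 experiment) or 0.001 (drug experiment) stands for no signal. For Cd93, the deleted gene, WT LSK had 5.34 and 22.9 RPKM, KO LSK 1.01 and 2.10, WT LSC 0.003, 0.003 and 5.74, and KO LSC 0.003, 44.3 and 0.003. The second KO LSC library thus goes against its label; it is called the library labelled KO LSC 2 below, and several differences are given with and without it. Features above the lowest value numbered 14279 to 14906 per LSK library, 5525 to 7956 in WT LSC, 1230 to 2967 in KO LSC, and 15587 to 20014 in the drug experiment. Of 20 genes that nearly all cells use, 0 were at the lowest value in LSK cells and in the drug experiment, while WT LSC lacked 2 to 3 of them and KO LSC 1, 2 and 3 lacked 5, 5 and 11, so a gene listed at the lowest value in the LSC of the CD93 experiment need not be absent from the cells. The spacing of low values gave a depth of about 5500000 to 7690000 reads for LSK and 2740000 to 3240000 for WT LSC. No depth could be read in the other 9 libraries, as KO LSC had too few usable values (36 to 40) and the drug experiment no clear spacing. Stem cell markers, 12 genes including Kit, Ly6a and Procr, summed to 1105 to 2310 RPKM in LSK, 81.9 to 139.7 in WT LSC and 0.036 to 1.86 in KO LSC, and 10 of the 12 had no signal in any KO LSC library. Neutrophil markers, 16 genes including S100a8, summed to 5594 to 9115 in LSK, 88870 to 144500 in WT LSC and 48290 to 88540 in KO LSC.

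The 3 C1q chains and Apoe were at 203 RPKM or more in the libraries of the CD93 experiment, except C1qa in 2 KO LSC libraries, and were at most 2.70 RPKM (C1q) or 28.2 to 39.8 RPKM (Apoe) in the drug experiment. In the CD93 experiment C1qb, C1qc and Apoe were higher in WT LSC than in WT LSK, while Cx3cr1 and Clec4a1 were at the lowest value in all WT LSC libraries. In KO LSC, C1qb, C1qc, Apoe and Clec4a2 had values that overlapped those of WT LSC, but Axl was at the lowest value in all 3 libraries, Ctsb in 2 and 0.272 in the third, and C1qa ranged from 0.003 to 1146 RPKM. With MCP, C1qb and C1qc were at the lowest value in all 3 libraries against 0.943 to 2.70 RPKM with vehicle.

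**Figure D1:**
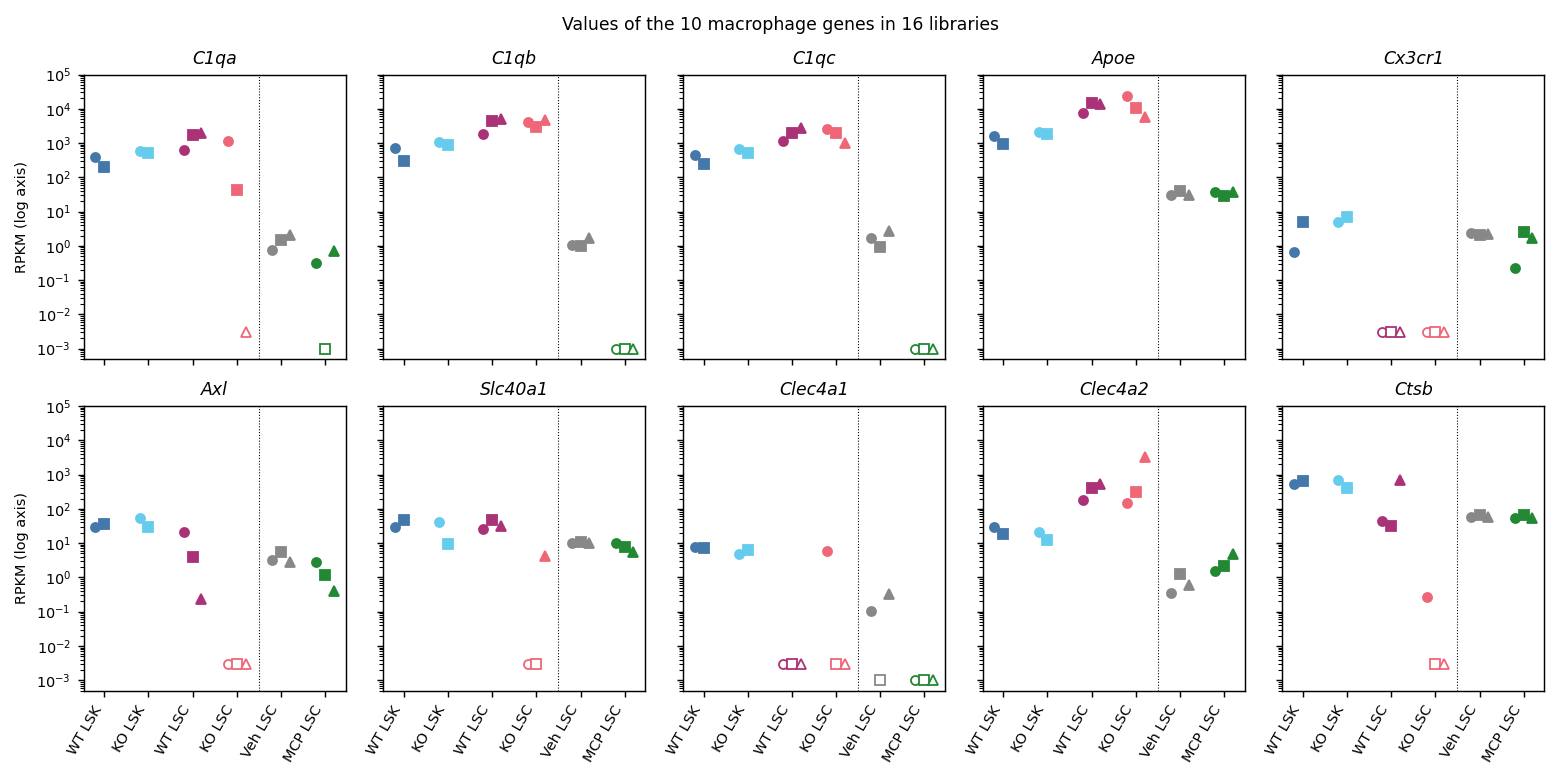
Values of the 10 genes in each of the 16 libraries, in RPKM on a log axis, by group; circles, squares and triangles are replicates 1, 2 and 3, open symbols are values at the lowest value of the experiment, and the dotted line parts the CD93 from the separately normalised drug experiment. C1qb lies between 294 and 5146 RPKM in all 10 libraries of the CD93 experiment and at or below 1.75 in the drug experiment.

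C1qa, C1qb and C1qc encode the 3 chains of C1q. The genes stand side by side on the minus strand of chromosome 4 (GRCm38): C1qb at 136880129 to 136886187, C1qc at 136889804 to 136893065 and C1qa at 136895917 to 136898803, with gaps of 3616 and 2851 bases. Apoe lies on chromosome 7 at 19696109 to 19699188, also on the minus strand. Since C1qb, C1qc and Apoe shared their pattern in the CD93 experiment, the stretch before the start of each is shown, from RefSeq on GRCm38.p6, minus strand, 5' to 3': chr4:136886201-136886450 for C1qb, chr4:136893066-136893164 for C1qc and chr7:19699189-19699438 for Apoe. Of the C1qc window, only the 99 bases before its GENCODE model are shown. Capitals mark GAGGAA or, on the opposite strand, TTCCTC, a core bound by ETS factors such as PU.1 of macrophages, and in C1qc the 8-letter form GAGGAAGT read as ACTTCCTC.
C1qb: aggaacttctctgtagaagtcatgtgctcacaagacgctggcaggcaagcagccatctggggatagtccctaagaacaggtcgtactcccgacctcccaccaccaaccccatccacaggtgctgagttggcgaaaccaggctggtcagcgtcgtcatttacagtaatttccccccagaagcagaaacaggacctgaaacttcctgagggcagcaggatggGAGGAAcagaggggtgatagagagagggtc
C1qc: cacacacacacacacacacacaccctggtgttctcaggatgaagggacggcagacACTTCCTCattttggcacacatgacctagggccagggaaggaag
Apoe: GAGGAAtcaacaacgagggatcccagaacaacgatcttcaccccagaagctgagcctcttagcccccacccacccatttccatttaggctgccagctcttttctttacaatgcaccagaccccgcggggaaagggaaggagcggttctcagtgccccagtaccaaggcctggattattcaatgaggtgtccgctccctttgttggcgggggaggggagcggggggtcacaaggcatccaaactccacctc
The motif began 30 bases before the start in C1qb and 250 bases before it in Apoe, where start 2 in RefSeq held none and start 3 held 1 match 132 bases before it; in C1qc the 8-letter form lay on the opposite strand, 195 bases before the start. Searched on both strands in windows of 250 bases, GAGGAA occurred in 23.25% of 32851 promoters and GAGGAAGT, which contains it, in 2.441%. Axl and Clec4a1 also held GAGGAA, while Cx3cr1 and Clec4a2 did not. The lysosomal gene element CACGTGAC (in 1.848% of promoters) was searched too and found in none of these windows. No promoter sequence matched C1qa, Slc40a1 or the lysosomal gene Ctsb, so these were not searched. A match is a run of letters and was not tested as a binding site.

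For C1qb, WT LSK had 697 and 294 RPKM, KO LSK 1065 and 893, and WT LSC 1827, 4539 and 5146. KO LSC had 4119, 2927 and 4681 RPKM. Every LSC library of this experiment was above every LSK library. C1qb in the drug experiment was 1.03, 0.987 and 1.75 RPKM with vehicle and 0.001 in all 3 MCP libraries.

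C1qc followed the same order, where WT LSK had 436 and 253 RPKM, KO LSK 692 and 499, WT LSC 1130.3, 2016 and 2743, and KO LSC 2562, 1917 and 977. Again all LSC libraries of the CD93 experiment were above all LSK libraries. Vehicle LSC had 1.69, 0.943 and 2.70 RPKM and the 3 MCP libraries 0.001.

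C1qa differed from its partners in KO LSC. WT LSK had 403 and 203 RPKM, KO LSK 605 and 498, and WT LSC 615, 1755 and 1976, so WT LSC 1 was close to KO LSK 1. KO LSC 1 had 1146 RPKM, the library labelled KO LSC 2 had 42.0, and KO LSC 3 had 0.003. Vehicle LSC had 0.742, 1.53 and 2.05 RPKM and MCP LSC 0.32, 0.001 and 0.711, a pair of groups that did not overlap.

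The 3 chains were in a steady proportion in LSK cells, where C1qa made up 25.6% to 27.0% of their summed RPKM and C1qb 39.2% to 47.3%. In WT LSC the C1qa share was 17.2% to 21.1%, below every LSK library. It was 14.6% in KO LSC 1, 0.9% in the library labelled KO LSC 2 and 0.0% in KO LSC 3, where C1qb alone made up 82.7%. The ratio of C1qb to C1qa was 1.45 to 1.80 in LSK and 2.59 to 2.97 in WT LSC. It was 3.60 in KO LSC 1 and 69.7 in the library labelled KO LSC 2. KO LSC 3 was also the library with the fewest features, 1230, and the part of that in the C1qa value was not tested.

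**Figure D2:**
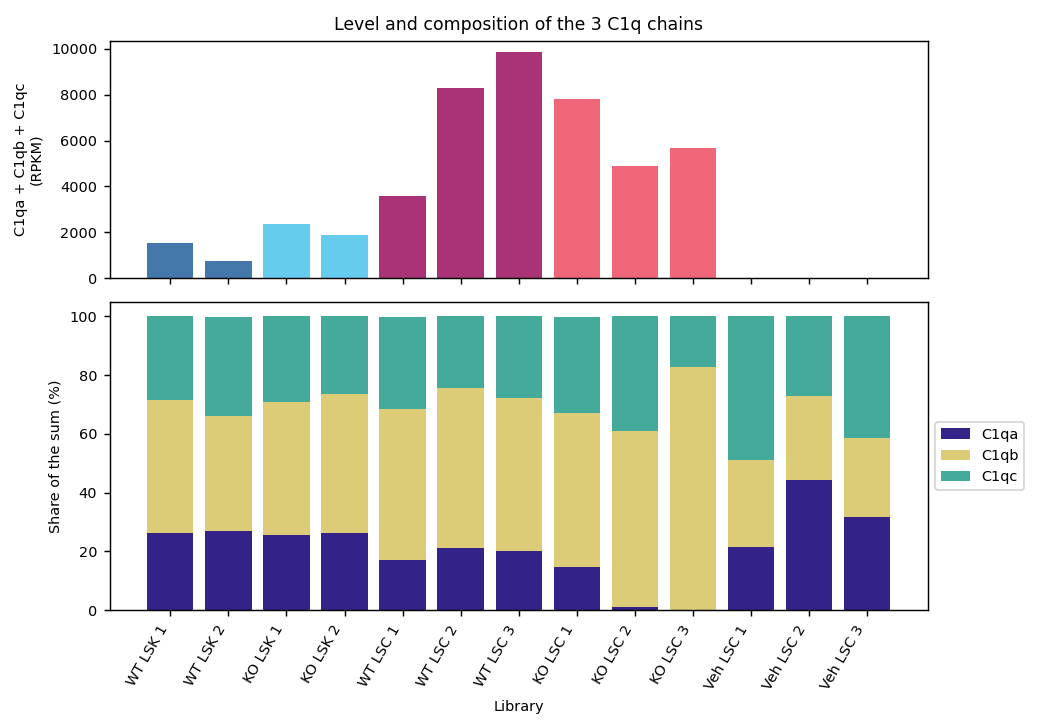
Summed RPKM of C1qa, C1qb and C1qc (top) and the share of each chain in that sum (bottom, percent) by library; MCP libraries, where C1qb and C1qc are at the lowest value, are left out. C1qa takes 25.6% to 27.0% in LSK libraries and at most 21.1% in the LSC libraries of the CD93 experiment, and the vehicle sums of 3.46 to 6.50 RPKM are too low to be seen on the upper axis.

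Apoe, which carries lipid out of macrophages, was the most abundant of the 10 genes in every library of the CD93 experiment. WT LSK had 1641 and 968 RPKM, KO LSK 2165 and 1864, and WT LSC 7656, 14452 and 13958. KO LSC had 23504, 10268 and 5863 RPKM, and in KO LSC 1 Apoe ranked number 1 of the 2967 features above the lowest value. All LSC libraries were above all LSK libraries of this experiment. Apoe in the drug experiment was 29.8, 39.8 and 31.4 RPKM with vehicle and 36.2, 28.2 and 36.4 with MCP, and these groups overlapped.

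Axl, a receptor tyrosine kinase of the TAM family that helps macrophages engulf dying cells, was 28.6 and 35.9 RPKM in WT LSK and 53.8 and 29.2 in KO LSK. WT LSC had 21.0, 3.86 and 0.242 RPKM and the 3 KO LSC libraries 0.003. All LSC libraries of this experiment were thus below all LSK libraries. Vehicle LSC had 3.17, 5.62 and 2.76 RPKM and MCP LSC 2.79, 1.15 and 0.413, with MCP 1 just above the lowest vehicle library.

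Cx3cr1, the fractalkine receptor of monocytes and many tissue macrophages, was 0.646 and 5.07 RPKM in WT LSK and 5.13 and 7.10 in KO LSK, and 0.003 in all 6 LSC libraries of that experiment. In the drug experiment it was 2.42, 2.12 and 2.16 RPKM with vehicle and 0.231, 2.62 and 1.71 with MCP, so the groups overlapped. Its GENCODE gene model (chromosome 9, 119901616 to 120069879, minus strand) overlaps 9 other genes, some on its own strand. The library kit does not mark strand, so reads of these neighbours may be counted in it.

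Slc40a1 encodes ferroportin, the iron exporter that macrophages use to return iron from red cells. WT LSK had 29.8 and 46.6 RPKM, KO LSK 40.8 and 9.48, and WT LSC 25.9, 48.8 and 31.2, with these groups overlapping. KO LSC 1 and the library labelled KO LSC 2 had 0.003 and KO LSC 3 had 4.32 RPKM, all below each of the other 7 libraries. Vehicle LSC had 10.2, 11.1 and 10.3 RPKM and MCP LSC 10.1, 7.55 and 5.62, each below the lowest vehicle library.

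Clec4a1 and Clec4a2 encode C-type lectins of monocytes, macrophages and dendritic cells. They lie 171808 bases apart on chromosome 6 (Clec4a1 at 122921848 to 122934619, Clec4a2 at 123106428 to 123143999, plus strand). They belong to a family of close copies, and how the authors' counting split reads between copies is not given in the sources used here, so their levels are uncertain. Clec4a1 was 7.93 and 7.32 RPKM in WT LSK and 4.76 and 6.50 in KO LSK, 0.003 in all 3 WT LSC libraries, and 6.01, 0.003 and 0.003 in KO LSC. Clec4a2 went the other way, with 29.6 and 18.1 RPKM in WT LSK and 21.4 and 12.5 in KO LSK, while WT LSC had 184, 394 and 522 and KO LSC had 153, 300.4 and 3297. Clec4a2 was higher in each LSC library of that experiment than in each LSK library, and KO LSC 3 was more than 6 times the highest WT LSC library. Clec4a2 in the drug experiment was 0.34, 1.22 and 0.613 RPKM with vehicle and 1.49, 2.09 and 4.71 with MCP, without overlap, while Clec4a1 was at most 0.328.

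Ctsb encodes cathepsin B, a lysosomal protease that macrophages use to break down what they engulf. It was 531 and 639 RPKM in WT LSK and 682 and 413 in KO LSK. WT LSC 1 and 2 had 44.1 and 32.6 RPKM, while WT LSC 3 had 718, the highest value of the experiment. KO LSC had 0.272, 0.003 and 0.003 RPKM. The gene, on chromosome 14 at 63122462 to 63145923 (plus strand), overlaps Fdft1 on the other strand, which cannot be told apart without strand. In the drug experiment Ctsb was steady, at 57.8, 67.3 and 57.6 RPKM with vehicle and 55.9, 64.1 and 55.0 with MCP.

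Ranks within a library are given next, as shares of the features detected in it. These numbered 1230 to 14906 in the CD93 experiment and 15587 to 20014 in the drug experiment, so the shares also depend on detection. C1qb stood above 94.8% to 99.5% of the features detected in a library of the CD93 experiment and above 32.0% to 38.4% in the vehicle libraries. Apoe stood above at least 95.7% in the CD93 experiment and 73.3% to 82.9% in the drug experiment. Ctsb stood above 95.5% to 98.6% in LSK libraries and 86.2% to 90.2% in the drug experiment. In WT LSC 1, 2 and 3 it stood above 68.8%, 60.1% and 95.0%. It stood above 5.8% in KO LSC 1 and was at the lowest value in the other KO LSC libraries.

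**Figure D3:**
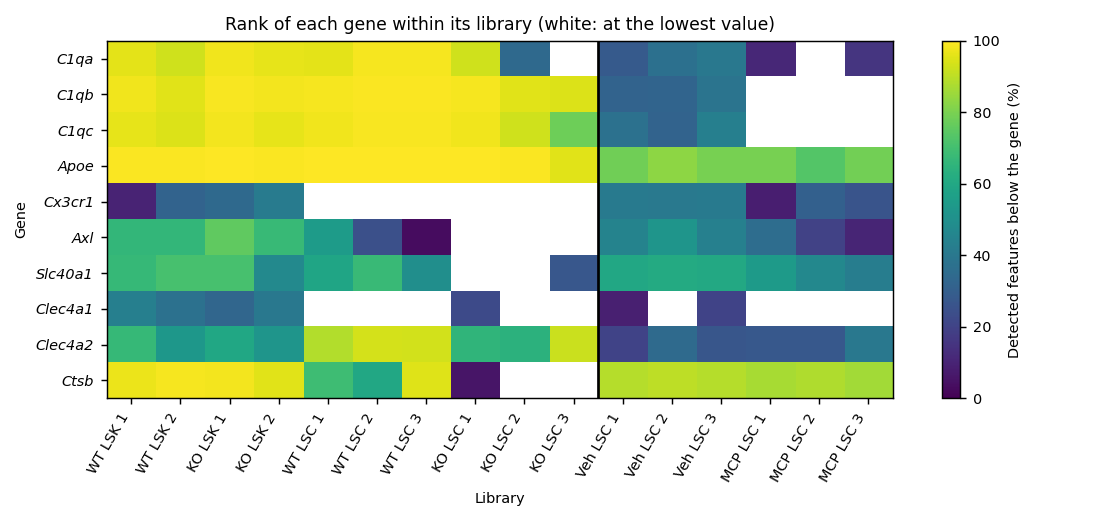
Share of the features above the lowest value that lie below each gene, in percent, for the 10 genes in the 16 libraries; white cells are genes at the lowest value and the black line parts the experiments. C1qb and Apoe are near the top of all CD93 experiment libraries, and Ctsb is the highest of the 10 genes by rank in every drug experiment library.

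The 10 genes together took 0.246% to 0.461% of the column total in LSK libraries, 0.925% to 2.24% in WT LSC and 1.14% to 2.85% in KO LSC. They took 0.0110% to 0.0149% in the drug experiment. WT LSC and vehicle LSC are both leukemic LSC of BL/6 mice by their titles, and differ in the vehicle treatment, the experiment and the table they come from. These cannot be told apart, and no test was made across the tables.

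Macrophage markers are given beside these values. Of 25 tissue macrophage markers, 23 to 24 were above the lowest value in each LSK library, 17 to 18 in WT LSC, 5 to 7 in KO LSC, 17 to 22 in Veh LSC and 11 to 12 in MCP LSC. Of all 26595 features, 14279 to 14906 were above it in LSK, 5525 to 7956 in WT LSC and 1230 to 2967 in KO LSC. Of 36930 in the drug experiment, 19554 to 20014 were in Veh LSC and 15587 to 16447 in MCP LSC. Fewer detected markers thus go along with fewer detected features of any kind. Their summed level was 726 to 1237 RPKM in LSK, 1135 to 3612 in WT LSC, 1707 to 3100.0 in KO LSC, 80.5 to 84.8 in Veh LSC and 53.1 to 62.2 in MCP LSC. In KO LSC 12 of the 25 were at the lowest value in all libraries, among them the defining genes Csf1r, Mertk, Siglec1, Timd4 and Maf; in MCP LSC there were 9, among them Mertk, Timd4 and Maf. Adgre1, which encodes F4/80, was 9.37 to 17.1 RPKM in LSK and 0.116 to 3.40 in WT LSC, while KO LSC had 0.003, 0.003 and 878. Cd68 was 115 to 198 in LSK, 224 to 1631 in WT LSC, while KO LSC had 1062, 320.0 and 0.003. The 28 monocyte markers summed to 4225 to 5210 RPKM in LSK, 7591 to 12270 in WT LSC, 1115 to 10190 in KO LSC, 424 to 476 in Veh LSC and 344 to 408 in MCP LSC. The part of macrophages or monocytes in the sorted cells in the values of the 10 genes was not tested. In bulk samples, fewer cells of a type and less RNA per cell cannot be told apart.

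**Figure D4:**
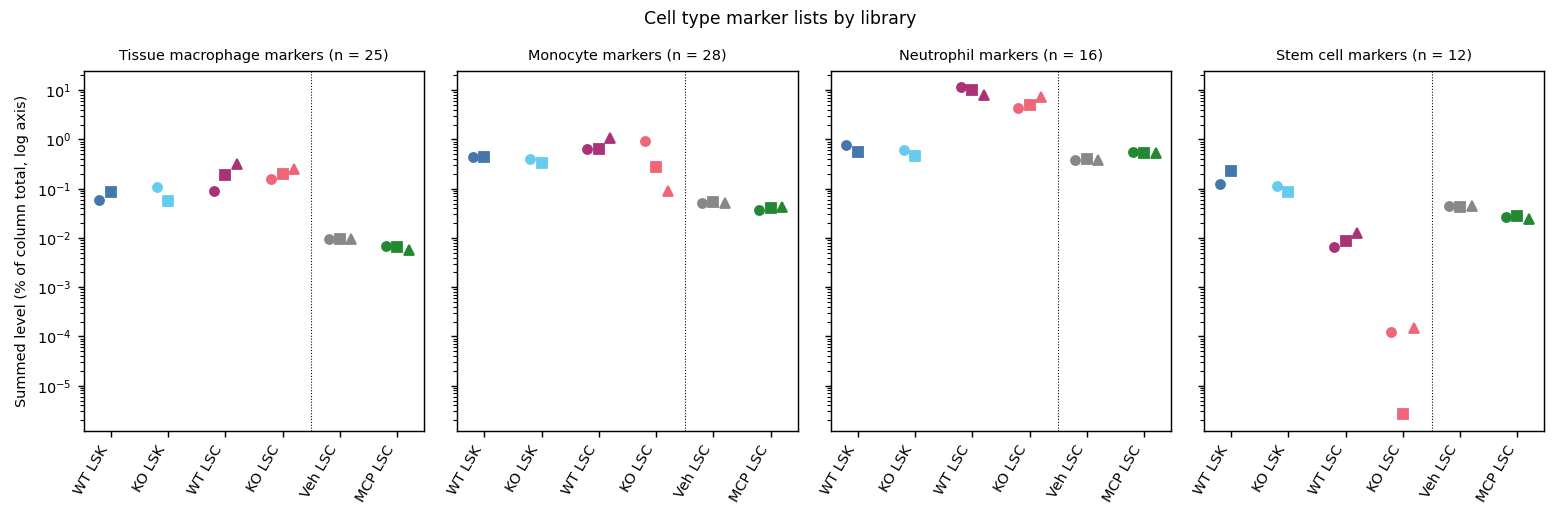
Summed level of 4 marker lists as percent of each library's column total, on a log axis, by group; symbols are replicates and the dotted line parts the experiments. Tissue macrophage markers take 0.0569% to 0.322% in the CD93 experiment and 0.00558% to 0.00972% in the drug experiment, neutrophil markers are highest in the LSC of the CD93 experiment, and stem cell markers are lowest in KO LSC.

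Between groups, differences are on the scale of log2(RPKM + 1) with the standard error (SE) of a limma model over all tested genes, and a gene is called at a Benjamini-Hochberg adjusted p under 0.05. For the leukemia effect in WT, LSC against LSK, C1qb was higher by 2.95 (SE 0.57), C1qc by 2.47 (SE 0.61), Apoe by 3.20 (SE 0.58) and Clec4a2 by 3.80 (SE 1.33). C1qa was higher by 2.17 with a wide SE of 2.48, since the 4 groups share 1 spread and KO LSC ranged from 0.003 to 1146 RPKM. Axl was lower (log2 -2.69, SE 1.05), as was Ctsb (log2 -2.50, SE 1.33), and the Ctsb difference was -3.91 without WT LSC 3. Of the 10 genes, 3 were called higher (C1qb, C1qc and Apoe), where 1.45% of 13485 tested genes were, and 2 lower (Cx3cr1 and Clec4a1, both at the lowest value in WT LSC), where 42.3% were. In either direction 43.8% of all tested genes were called. The median difference was 1.02 over the 10 genes and -1.94 over all tested genes. Cx3cr1 and Clec4a1 passed the filter of 1 RPKM in 2 libraries through LSK libraries alone. Their p-values for LSC against LSK are thus not evidence of a difference. The same holds for Cd59b, Cd55, C1ra, Scarb1, Nr1h3, Vldlr and Abcg1 below. It holds too for Mfge8, Adam17, Slc48a1, Ctsl, Ctsf, Tfeb and Clec4d.

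Quantile scaling moved the median of all tested genes from -1.94 to 0.23 and the calls from 196 higher and 5709 lower to 1351 higher and 1568 lower. Under it C1qb was 2.75, C1qc 2.80, Apoe 2.25 and Clec4a2 6.25 higher in WT LSC, while Axl (0.22), Cx3cr1 (0.36) and Slc40a1 (1.27) turned to higher; of these 3 only Cx3cr1 had been called. Apoe was then no longer called, and Clec4a2 was. In RPKM, every WT LSC library was below every WT LSK library for Axl and Cx3cr1, so their signs depend on the scaling. Cx3cr1 had no signal in WT LSC, so its turned sign does not show a rise.

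In KO, LSC against LSK, C1qb was higher by 1.97 (SE 0.57), C1qc by 1.52 (SE 0.61), Apoe by 2.48 (SE 0.58) and Clec4a2 by 4.94 (SE 1.33). Without the library labelled KO LSC 2 these were 2.17, 1.43, 2.55 and 5.36. Slc40a1 (log2 -3.58, SE 0.96) and Ctsb (log2 -8.94, SE 1.33) were lower, and without that library the differences were -3.18 and -8.88. Of the 10 genes 3 were called higher (C1qb, Apoe and Clec4a2), against 0.564% of all tested genes, and 4 lower (Cx3cr1, Axl, Slc40a1 and Ctsb), against 61.7%, with 62.2% in either direction. Quantile scaling moved the median of all tested genes from -3.06 to 0.12 and the calls from 76 higher and 8315 lower to 2013 higher and 1755 lower. Under it Slc40a1 (1.06), Cx3cr1 (0.28) and Clec4a1 (1.4) turned to higher, and C1qb (1.24) and Apoe (1.68) were no longer called. In RPKM, every KO LSC library was below every KO LSK library for Slc40a1 and Cx3cr1, so their signs depend on the scaling. Cx3cr1 had no signal in KO LSC, so its turned sign does not show a rise.

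**Figure D5:**
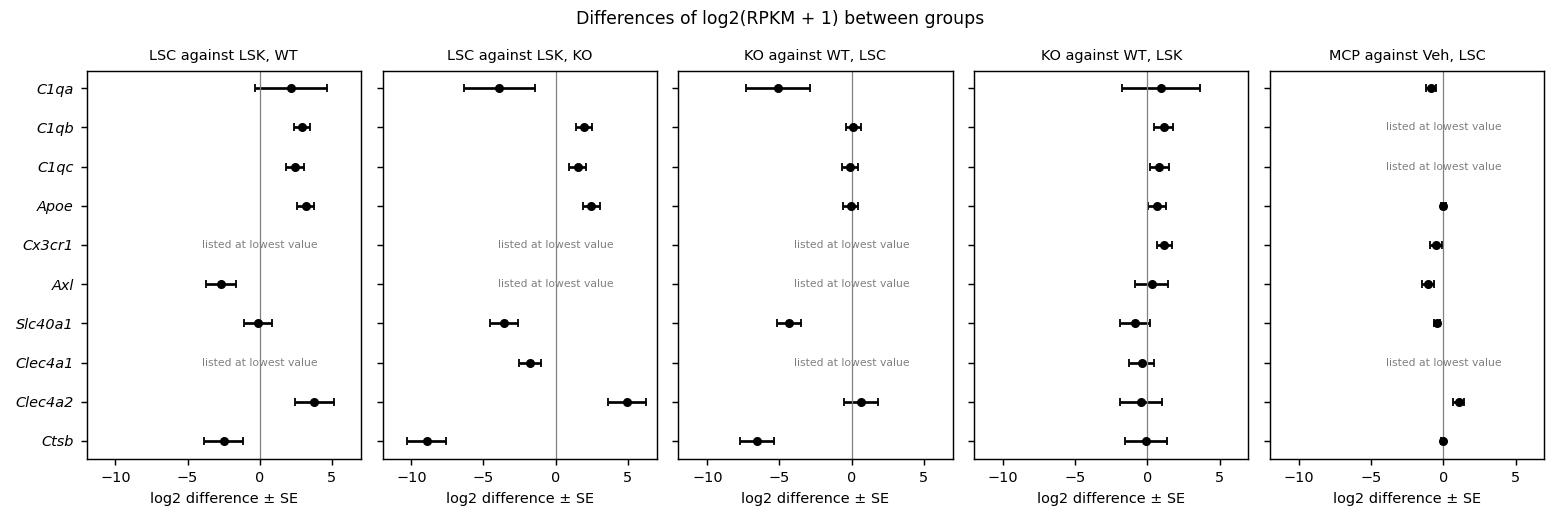
Difference of log2(RPKM + 1) with its standard error for each of the 10 genes in 5 comparisons; genes that are at the lowest value in all libraries of 1 of the groups, or were not tested, have no point. C1qb, C1qc and Apoe lie right of 0 in both comparisons of LSC with LSK and close to 0 for KO against WT in LSC, where Ctsb (-6.57) and Slc40a1 (-4.33) lie left.

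KO and WT LSC differed little in C1qb (log2 0.13, SE 0.51), C1qc (log2 -0.13, SE 0.55) and Apoe (log2 -0.04, SE 0.52). Ctsb (log2 -6.57, SE 1.19) and Slc40a1 (log2 -4.33, SE 0.86) were lower in KO LSC, and both differences rest on libraries at the lowest value. Without the library labelled KO LSC 2 they were -6.51 and -3.92, the latter no longer called, and under quantile scaling -3.68 and -0.82, where neither was. C1qa differed by -5.13 (SE 2.22), a value that was -2.54 without KO LSC 3 and -7.62 without KO LSC 1. Without the library labelled KO LSC 2 the differences were 0.33 for C1qb, -0.22 for C1qc, 0.02 for Apoe and -5.25 for C1qa. Of the 10 genes 0 were called higher, against 0.0742% of all tested genes, and 2 lower (Ctsb and Slc40a1), against 8.74%, with 8.81% in either direction (limma; 3 of the 10 had an unadjusted p under 0.05, against 21.1% of all tested genes). Quantile scaling turned the 10 higher and 1178 lower calls over all genes into 562 and 745.

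In naive LSK cells the KO and WT groups did not overlap for C1qa, C1qb, C1qc, Apoe, Cx3cr1 and Clec4a1. The KO libraries were higher in the first 5 and lower in Clec4a1. These are 6 of 10 genes, and 34.6% of all tested genes had LSK groups that did not overlap. With 2 libraries a group, C1qb differed by 1.11 (SE 0.63) and Apoe by 0.67 (SE 0.63). Of the 10 genes 0 were called by limma, against 1.83% of all tested genes (0.816% higher and 1.02% lower), and 0 had an unadjusted p under 0.05; the 110 higher and 137 lower calls over all genes became 11 and 4 under quantile scaling. The difference between the leukemia effects in KO and in WT was called by limma for 0 of the 10 genes, against 6.08% of all tested genes (0.934% higher and 5.15% lower), and 2 of the 10 (Slc40a1 and Ctsb) had an unadjusted p under 0.05, against 15.2% of all tested genes. Over all genes it was called higher for 126 and lower for 694, and for 96 and 54 under quantile scaling.

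With MCP the C1q chains were lower and Clec4a2 higher than with vehicle. C1qb and C1qc were at the lowest value in all 3 MCP libraries, so no difference is given. C1qa differed by -0.86 (SE 0.34), Axl by -1.06 (SE 0.42), Slc40a1 by -0.43 (SE 0.22) and Clec4a2 by 1.07 (SE 0.38). Apoe (log2 -0.00, SE 0.15) and Ctsb (log2 -0.06, SE 0.10) were close to 0. Clec4a1 did not pass the filter of 1 RPKM in 2 libraries. C1qa, C1qb and C1qc passed it through the vehicle libraries alone, and Clec4a2 through the MCP libraries alone. Of the 9 tested genes 0 were called by limma, against 2.32% of all 14005 tested genes (0.521% higher and 1.8% lower), and 3226 of all tested genes had an unadjusted p under 0.05. So had Axl, Clec4a2 and the 3 C1q chains. The chains and Clec4a2 passed the filter only through the group where they were high, so their p-values are not evidence of a difference. Over all genes 73 were higher and 252 lower, and 109 and 151 under quantile scaling. MCP libraries also had fewer features (15587 to 16447) than vehicle libraries (19554 to 20014), and the part of that in values near 1 RPKM was not tested.

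Other complement genes were called in both directions. Of 19 tested complement genes besides C1q, 2 were called higher and 4 lower in WT LSC against WT LSK (1.45% and 42.3% of all tested genes), with a median of -1.37 against -1.94 over all tested genes (5 and 0 under quantile scaling, median 0.64). C3, the central complement protein, was higher: 6.69 and 7.98 RPKM in WT LSK against 176, 186 and 102 in WT LSC (log2 4.18, SE 0.89, limma adjusted p = 0.00569). KO LSC had 139.7, 65.7 and 304 RPKM of C3 and the drug experiment 20.9 to 34.0. The complement brake gene Cd59b was at 0.003 in the 6 LSC libraries of the CD93 experiment against 6.58 and 10.2 RPKM in WT LSK (limma adjusted p = 1.38e-05). Cd55 (limma adjusted p = 0.0173), another brake, and C1ra (limma adjusted p = 0.0209), a protease that C1q carries, were called lower too. Under quantile scaling Cd59b, Cd55 and C1ra were no longer called and C1ra changed sign (0.64), while C3 was still called. The call of Cd55 also ended without WT LSK 1 or WT LSK 2, that of C1ra without WT LSK 2, WT LSC 2 or WT LSC 3, and both with only these groups in the model. That of C1ra ended without a filter and with a replicate block too. For KO against WT, limma called 0 of the 19 complement genes in LSC and 0 in LSK, and 0 had an unadjusted p under 0.05 in either. Over all tested genes 8.81% (LSC) and 1.83% (LSK) were called, and 21.1% and 8.7% had such a p. For MCP against Veh limma called 0 of 16, and 2 had an unadjusted p under 0.05, against 2.32% and 23% of all tested genes.

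Of 19 tested genes of lipid uptake and efflux, 0 were called higher and 9 lower in WT LSC against WT LSK, where 42.3% of all tested genes were called lower (median -2.15 against -1.94), and 0 and 1 under quantile scaling (median 0.42). Scarb1, a lipoprotein receptor, was 84.6 and 118 RPKM in WT LSK and at the lowest value in all WT LSC libraries (limma adjusted p = 4.52e-06). Nr1h3, which encodes the sterol-sensing receptor LXR alpha, was 8.49 and 15.4 RPKM in WT LSK and likewise at the lowest value (limma adjusted p = 1.6e-05), and so was the lipoprotein receptor gene Vldlr (limma adjusted p = 8.21e-05). Abcg1, a cholesterol exporter gene, was 13.1 and 30.6 in WT LSK and 0.647, 0.003 and 0.003 in WT LSC (limma adjusted p = 0.000188). Under quantile scaling the calls of Nr1h3, Vldlr and Abcg1 ended. In KO against WT LSC 0 were called higher and 2 lower, beside 0.0742% and 8.74% of all tested genes. Nr1h2, the gene of LXR beta, was 71.0, 39.2 and 41.4 RPKM in WT LSC and 0.003 in all KO LSC (limma adjusted p = 0.000662). Npc2, a lysosomal cholesterol carrier gene, was the other (limma adjusted p = 0.0198). It was not called without KO LSC 3, under quantile scaling or with only these groups in the model. In the drug experiment limma called 0 of 14, and 3 had an unadjusted p under 0.05, against 2.32% and 23% of all tested genes.

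Among 16 tested genes of TAM receptors and efferocytosis, the clearance of dying cells, 1 was called higher and 3 lower in WT LSC against WT LSK (1.45% and 42.3% of all tested genes), and 6 and 1 under quantile scaling. Mfge8, a bridge between dying cells and phagocytes, was 90.4 and 141.7 RPKM in WT LSK and at the lowest value in WT LSC (limma adjusted p = 4.52e-06). In the drug experiment Itgav, an integrin subunit that binds Mfge8, fell from 10.2, 9.79 and 11.0 to 4.30, 5.22 and 4.97 RPKM with MCP (log2 -0.96, SE 0.18, limma adjusted p = 0.0422). It was the 1 call among 10 tested, where 2.32% of all tested genes were called. Of 9 tested genes around Cx3cr1, 0 were called higher and 3 lower in WT LSC (42.3% of all tested genes were lower), among them Adam17, a protease that sheds fractalkine (7.97 and 25.7 RPKM in WT LSK, lowest value in all WT LSC, limma adjusted p = 2e-04, not called under quantile scaling).

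Of 22 tested iron genes besides Slc40a1, 0 were called higher and 9 lower in WT LSC against WT LSK, beside 42.3% lower over all tested genes (median -1.82 against -1.94), and 2 and 2 under quantile scaling (median 0.28). Slc48a1, a heme transporter gene, was 135 and 186 RPKM in WT LSK and at the lowest value in WT LSC (limma adjusted p = 4.52e-06). In KO against WT LSC 3 were called lower and 0 higher, where 8.74% of all tested genes were called lower. Spic, a transcription factor of iron-recycling macrophages, was 113, 305 and 21.6 RPKM in WT LSC and at the lowest value in KO LSC (limma adjusted p = 0.00334), and its call ended with only these groups in the model. Nfe2l2, the regulator of the oxidative stress response, went from 84.6, 124 and 107 RPKM to the lowest value (limma adjusted p = 0.000498). Blvrb, a heme breakdown enzyme gene, rose with MCP from 142, 145 and 138 to 197, 190.2 and 204 RPKM (log2 0.47, SE 0.06, limma adjusted p = 0.0222). It was the 1 call among 19, where 2.32% of all tested genes were called.

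Of 31 tested lysosome genes besides Ctsb, 0 were called higher and 11 lower in WT LSC against WT LSK, beside 42.3% lower over all tested genes, with a median of -2.51 against -1.94, and 2 and 6 under quantile scaling (median -0.86). Ctsl, cathepsin L, was 115 and 102 RPKM in WT LSK and 1.93, 0.003 and 0.003 in WT LSC (limma adjusted p = 3.61e-05). Ctsf, cathepsin F (limma adjusted p = 1.69e-05), and Tfeb, a regulator of lysosome genes (limma adjusted p = 1.03e-05), were at the lowest value in all WT LSC libraries. In KO against WT LSC 2 were called lower, Npc2 and Lamp1, where 8.74% of all tested genes were. Lamp1, a lysosome membrane protein gene, was 48.8, 200.5 and 123 RPKM in WT LSC and at the lowest value in KO LSC (limma adjusted p = 0.000683). Grn, the progranulin gene, fell with MCP from 39.5, 36.5 and 36.9 to 22.1, 26.3 and 24.4 RPKM (log2 -0.62, SE 0.11, limma adjusted p = 0.0387). It was the 1 call among 31, where 2.32% of all tested genes were called.

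Of 20 tested myeloid lectin genes and their signalling partners, 0 were called higher and 6 lower in WT LSC against WT LSK (42.3% of all tested genes were lower), and 1 and 0 under quantile scaling. Clec4d, a related lectin gene, was 27.1 and 11.9 RPKM in WT LSK and at the lowest value in WT LSC (limma adjusted p = 3.46e-05, not called under quantile scaling). Syk, a kinase downstream of several of these lectins, was 37.0, 16.4 and 37.9 RPKM in WT LSC and at the lowest value in KO LSC (limma adjusted p = 0.00103). With MCP, Clec12a rose from 46.4, 58.5 and 59.7 to 100.5, 92.9 and 86.1 RPKM (log2 0.76, SE 0.12, limma adjusted p = 0.03). Clec2d (log2 -0.71, SE 0.11, limma adjusted p = 0.0301) and Ptpn11, a phosphatase gene (log2 -0.47, SE 0.08, limma adjusted p = 0.0361), fell. Among 12 tested with MCP, 1 was called higher and 2 lower, where 0.521% and 1.8% of all tested genes were.

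Cell type markers were tested in the same models, where 1.45% of all tested genes were called higher and 42.3% lower in WT LSC against WT LSK. Of 15 tested neutrophil markers 7 were called higher and 0 lower, with the same counts under quantile scaling, and 11 of 12 stem cell markers were called lower and 0 higher (6 lower and 1 higher under quantile scaling). Of 23 tissue macrophage markers 0 were called higher and 2 lower, and 3 and 0 under quantile scaling, with a median of -0.11 that turned to 1.37. Of 26 monocyte markers 0 were called higher and 10 lower, and 0 and 5 under quantile scaling. Of 16 macrophage transcription factors 2 were called higher and 8 lower, and 3 and 2 under quantile scaling. With MCP, 5 of 12 neutrophil markers were called higher and 4 of 12 stem cell markers lower, where 0.521% and 1.8% of all tested genes were, with the same counts under quantile scaling. The part of these shifts in cell content in the values of the 10 genes was not tested.

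Other macrophage and monocyte genes were measured beside these. Pltp, a phospholipid transfer protein gene, was 2.40, 46.3 and 38.3 RPKM in WT LSC, while KO LSC had 0.003, 0.003 and 0.249 (limma adjusted p = 0.0366). Its call ended without any 1 of the KO LSC libraries, WT LSC 2 or WT LSC 3. It also ended under quantile scaling, without a filter, with a replicate block and with only these groups in the model. Without the library labelled KO LSC 2 the calls of Nr1h2, Npc2, Spic, Nfe2l2, Lamp1 and Syk for KO against WT LSC held. Each of these genes was at 0.003 RPKM in every KO LSC library, so leaving it out could not change their differences. Csf1r, the receptor for the growth factor that macrophages depend on, fell with MCP from 5.55, 5.78 and 5.08 to 1.66, 0.602 and 1.20 RPKM (log2 -1.62, SE 0.26, limma adjusted p = 0.0322). Klf4, a transcription factor of monocytes, fell from 15.2, 16.2 and 15.5 to 5.20, 6.22 and 3.73 (log2 -1.48, SE 0.20, limma adjusted p = 0.0222). Csf1r was the 1 call among 9 tested tissue macrophage markers, of which 3 went up and 6 down. Klf4 was the 1 call among 20 tested monocyte markers, of which 7 went up and 13 down. Over all tested genes 2.32% were called. All 8 genes named here as called with MCP lost that call when any 1 of the vehicle libraries was left out. With a replicate block all 8 calls ended as well. Quantile scaling ended the calls of Csf1r, Grn, Itgav and Ptpn11. Those of Csf1r, Klf4, Grn, Clec12a and Clec2d ended without a filter.

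The genes most like the mean of the C1q chains were Bod1l, Acin1, Bptf, Upf2 and Myo10, of 6600 genes that averaged at least 5 RPKM in both experiments. Likeness was the smaller of the Pearson r with the mean log2 level of the C1q chains over the 10 libraries of the CD93 experiment and over the 6 of the drug experiment; it was 0.90 for Bod1l and 0.84 for Myo10. The libraries share their group, depth and number of features, so these values are a description. Bod1l, for instance, was 11.3 to 27.3 RPKM in LSK, 59.1 to 151 in WT LSC, while KO LSC had 79.2, 22.3 and 0.003, so like C1qa it was at the lowest value in KO LSC 3. Bptf and Upf2 were at 0.003 RPKM in that library too. Each chain was also set against the mean of the other chains, so C1qa enters every r. Over the 10 libraries C1qa had r = 0.03, C1qb 0.21 and C1qc 0.56. There C1qa was 42.0 RPKM in the library labelled KO LSC 2 and 0.003 in KO LSC 3, unlike C1qb and C1qc. Over the 6 libraries r was 0.82, 0.98 and 0.93, with C1qb and C1qc at the lowest value in all MCP libraries. The part of these low values in r was not tested. Of the other members, Apoe had r = 0.69 with the mean of the C1q chains over the 10 libraries and 0.00 over the 6. Clec4a2 had 0.11 and -0.71.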

How the data were processed

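Gene values of 16 libraries were used as the authors deposited them. Their unit is not named; they were read as RPKM from the values, so each deposited RPKM is relative to gene length and library. Libraries were made with SMART-Seq v4, per the labels' protocols, and the build is GRCm38 (mm10), per the submitters' processing notes. The aligner and read counter were not given in the sources used here. Tables of both experiments were normalised separately and never tested against each other.

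Genes reaching 1 RPKM in 2 or more libraries were tested on log2(RPKM + 1) with limma 3.58.1 (R 4.3.3; trended eBayes, two-sided, Benjamini-Hochberg over 13485 or 14005 genes, threshold 0.05); a pseudocount of 1 understates changes of low genes. The script was checked on simulated data. Alternatives were quantile scaling, no filter, pseudocount 0.1, a replicate block, only the compared groups, and leaving out each library. Same-numbered libraries correlated by -0.28 to 0.04 in their deviations, so numbers were not used as pairs.

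The members and gene lists were chosen with earlier results of these data known. Besides the members and Cd93, up to 4 genes per list and comparison that passed with the smallest p and had a mean of 5 RPKM or more in the higher group could be named, and the 5 genes most like C1q. Adgre1 and Cd68 were named as defining macrophage markers. Gene positions are from GENCODE M21 and promoters from RefSeq; sequences for 7 of the 10 genes matched, and none for C1qa, Slc40a1 and Ctsb. Results for 1 gene and 1 motif are not reported here.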

Additional observations from a re-analysis of the deposited data

Results flagged for a closer look

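For 6 genes named above, the change differed between groups by the interaction term of the limma model or by libraries that all moved in opposite ways. The leukemia effect in KO minus that in WT, on the log2 scale, was -6.49 for Spic, -5.53 for Nr1h2, -6.28 for Nfe2l2, -7.53 for Lamp1 and -4.29 for Syk, each past the threshold. All 5 calls ended under quantile scaling and with a replicate block. The calls of Spic and Syk also ended without the library labelled KO LSC 2 and without KO LSC 3, and that of Spic without a filter and when any 1 library other than WT LSC 2 or WT LSC 3 was left out. The calls of Nr1h2, Nfe2l2 and Lamp1 held when any 1 library was left out. For Npc2 the genotype effect in LSC minus that in LSK was -5.30, which did not pass the threshold. All 6 genes were at 0.003 RPKM in every KO LSC library, so leaving out 1 KO LSC library could not change these differences. In KO LSC 1230 to 2967 features had a value, and the part of that in these differences was not tested.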

How the results depend on the processing

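Among named genes that were called, quantile scaling turned the sign of Cx3cr1 to 0.36 (LSC against LSK in WT) and 0.28 (KO), of C1ra to 0.64 and of Slc40a1 to 1.06 (KO LSC against KO LSK). In RPKM, every LSC library in these comparisons was below every LSK library for each of these genes, so the signs depend on the scaling. Cx3cr1 had no signal in any of these LSC libraries, so its turned sign does not show a rise. The cause of the turned signs was not tested. Quantile scaling changed the genes called from 5905 to 2919 (LSC against LSK in WT), 8391 to 3768 (KO), 247 to 15 (KO against WT in LSK) and 820 to 150 (difference of the leukemia effects). With only the compared groups in the model, 358 in place of 1188 were called for KO against WT in LSC, and limma called 0 in LSK (769 at an unadjusted p under 0.05). Without a filter, 404 were called in LSK. Same-numbered libraries did not vary together, and with the replicate block 5 genes were called for KO against WT in LSK, 0 for the difference of the leukemia effects (limma; 1836 at an unadjusted p under 0.05) and 39 in place of 325 for MCP. A crossed replicate block, chosen after seeing the data because same-numbered LSK libraries deviated in opposite ways, also called 5. Leaving out 1 library at a time gave 4670 to 6458, 6303 to 8416, 964 to 2066, 550 to 1084, 491 to 1558 and 25 to 406 calls for the WT and the KO leukemia effect, KO against WT in LSC, the same in LSK, the difference, and MCP. Of these, 2066 came without WT LSC 3, and 46, 77 and 25 for MCP without Veh 1, 2 and 3. Where an LSK library is left out, the lone library is assumed to vary like the other groups. Depth could not be read for 9 libraries, and the few features of the LSC libraries in the CD93 experiment limit what a lowest value shows.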
